A study of Sus scrofa with 4 samples.

Results

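The let-7 and miR-98 family was followed through 4 small RNA libraries of exosomes from pig umbilical cord blood. Its members were chosen by name alone: a row of the deposited tables belonged to the family if its name, without species prefix and variant suffix, began with let-7 or was miR-98. This gave 22 of 664 rows, which fell under 18 of 509 mature names. The guide arms of 9 members, let-7a to let-7g, let-7i and miR-98, held 13 of these rows, 8 rows belonged to the opposite arms, and 1 row carried the mouse name let-7j. A row named miR-98-3p, with 2 reads in normal vein and 0 in the other libraries, fell outside the rule.

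The let-7 microRNAs (miRNAs) were first described in the nematode Caenorhabditis elegans as regulators of developmental timing. In mammals they accumulate as cells differentiate, repress growth genes such as HMGA2, MYC and the RAS genes, and are held back in early cells by LIN28, which binds their precursors. All guide arms share a seed, bases 2 to 8 from the 5′ end, the stretch that pairs with target messenger RNAs. Several let-7 genes lie in clusters with each other or with miR-99, miR-100 and miR-125 genes.

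Plasma exosomes, small vesicles that carry RNA between tissues, came from Yorkshire piglets bled at birth from the umbilical vein, which runs from placenta to fetus, or the umbilical artery, which runs back. Each library was a pool of 3 piglets, either normal or with intrauterine growth restriction (IUGR), so every vessel and condition had 1 library and no difference between IUGR and normal littermates within a vessel had a replicate check. Labels name the vessel, and N (normal) or I (IUGR) in a column's name gave the condition. Where 4 values follow each other without names, the veins come before the arteries, and normal before IUGR in each. More vesicles of one source and more RNA per vesicle cannot be told apart in such libraries.

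Levels are shares of the reads outside PC- rows, predicted candidates with no known miRNA name. These reads numbered 35317 in normal vein and 7175 in IUGR vein, against 7527 in normal artery and 12327 in IUGR artery, and PC- rows took 13.2, 55.8, 45.3 and 38.8% of all reads. Red cell markers (miR-451, miR-144 and miR-486) held 44.8, 49.3, 40.2 and 9.91% of the reads, and liver markers (miR-122, miR-192 and miR-194) 0.176, 2.33, 2.32 and 28.6%. Markers of myeloid cells and platelets ranged from 1.17 to 2.18%, of endothelium from 0.657 to 2.43% and of striated muscle from 0.104 to 0.311%. Every marker of these lists had reads in each library except miR-206, a muscle miRNA, which had none in either IUGR library. Intervals in brackets are exact binomial (Clopper-Pearson) 95% intervals on rounded reads and cover counting error only, since the reads carry no molecular identifiers and PCR copies of a molecule count again.

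The 9 guide sequences are shown because they share a seed, in capitals, and differ in few bases elsewhere, which bears on how reads were assigned (T stands for U, as in the tables).
let-7a: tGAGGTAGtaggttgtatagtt
let-7b: tGAGGTAGtaggttgtgtggtt
let-7c: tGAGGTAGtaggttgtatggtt
let-7d: aGAGGTAGtaggttgcatagtt
let-7e: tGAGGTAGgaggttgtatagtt
let-7f: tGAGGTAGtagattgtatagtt
let-7g: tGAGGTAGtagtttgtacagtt
let-7i: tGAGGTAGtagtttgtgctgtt
miR-98: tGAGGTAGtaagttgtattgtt

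Each leading guide row was 22 bases long. Among the 36 pairs of members, sequences differed at 1 to 6 positions, and 4 pairs, let-7a with let-7c, let-7e and let-7f, and let-7b with let-7c, differed at 1. Counted from 1 at the 5′ end of let-7a, let-7c differs by A19G, let-7e by T9G and let-7f by G12A, while miR-98 differs by G11A and A19T. Among the 581 rows outside PC-, the seed GAGGTAG stood in 12 family rows, which is 2.07%, and in no other row. PC- rows were not searched for it. Fractions of a read, left where a read had been split between rows, occurred in 13 of the 22 family rows. Members 1 base apart, let-7e above all, are therefore uncertain at low counts.

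The family as a whole took the smallest share in normal vein and the largest in IUGR artery. It held 0.696% of reads in normal vein (0.612 to 0.789%) and 2.24% in IUGR vein (1.90 to 2.60%), against 2.10% in normal artery (1.79 to 2.45%) and 5.84% in IUGR artery (5.43 to 6.26%), from 246, 160.4, 158 and 719 reads. The intervals of IUGR vein and normal artery overlapped, and the other libraries stood apart. The liver markers and the summed arms of miR-126, the endothelial marker, were also lowest in normal vein and highest in IUGR artery. For miR-126 the intervals of normal vein, 0.575 to 0.747%, and normal artery, 0.620 to 1.04%, overlapped. miR-126-5p alone, with 141, 69, 28 and 65 reads, had its highest share in IUGR vein. The red cell markers were lowest in IUGR artery. The part of the liver and endothelial markers in the family's share was not tested, and values outside the red cell names stand beside the ratios they move.

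let-7a, identical in sequence to the let-7 of C. elegans, reached the highest level of any member. It took 0.0896% of reads in normal vein and 0.296% in IUGR vein, against 0.547% in normal artery and 3.37% in IUGR artery, from 31.6, 21.2, 41.2 and 415.7 reads. Its IUGR artery interval, 3.06 to 3.71%, lay above those of the other libraries.

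miR-98 was scarce except in one library. It had 5 reads (0.0142%) in normal vein and 4 (0.0558%) in IUGR vein, against 4 (0.0531%) in normal artery and 54 (0.438%) in IUGR artery. Its IUGR artery interval, 0.329 to 0.571%, began above the upper ends of the other libraries.

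let-7f differed from let-7a at 1 base and was far less abundant in IUGR artery. Its shares were 0.0532, 0.110, 0.159 and 0.417%, from 18.8, 7.90, 12 and 51.4 reads. The IUGR artery interval, 0.308 to 0.544%, did not overlap that of normal artery, 0.0824 to 0.278%.

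let-7g, the leading member in both vein libraries, was at a like level outside normal vein. It took 0.167% there and 0.563% in IUGR vein, against 0.425% in normal artery and 0.437% in IUGR artery, from 59.1, 40.4, 32 and 53.9 reads. The last 3 intervals overlapped.

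let-7c was highest in IUGR vein. Its shares were 0.0746, 0.534, 0.257 and 0.338%, from 26.3, 38.3, 19.3 and 41.7 reads. Its intervals in IUGR vein, 0.375 to 0.726%, and IUGR artery, 0.246 to 0.460%, overlapped.

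let-7i and let-7b resembled each other. let-7i took 0.0765, 0.265, 0.266 and 0.357% from 27, 19, 20 and 44 reads. let-7b took 0.0675, 0.216, 0.159 and 0.349% from 23.8, 15.5, 12 and 43 reads. For both, normal vein was lowest and IUGR artery highest, with overlapping intervals between IUGR vein and IUGR artery.

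The guide arms of let-7d and let-7e were rare throughout. let-7d had 11, 5, 5 and 3.33 reads, or 0.0311, 0.0697, 0.0664 and 0.0270%. let-7e had 2, 2, 4.33 and 2 reads, or 0.00566, 0.0279, 0.0576 and 0.0162%. For either member the intervals of all 4 libraries overlapped. The ratio of normal vein over normal artery for let-7e, a log2 of -3.18 (-6.70 to -0.43), excluded 0, but rests on fewer than 10 reads, some of them split between rows.

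**Figure D1:**
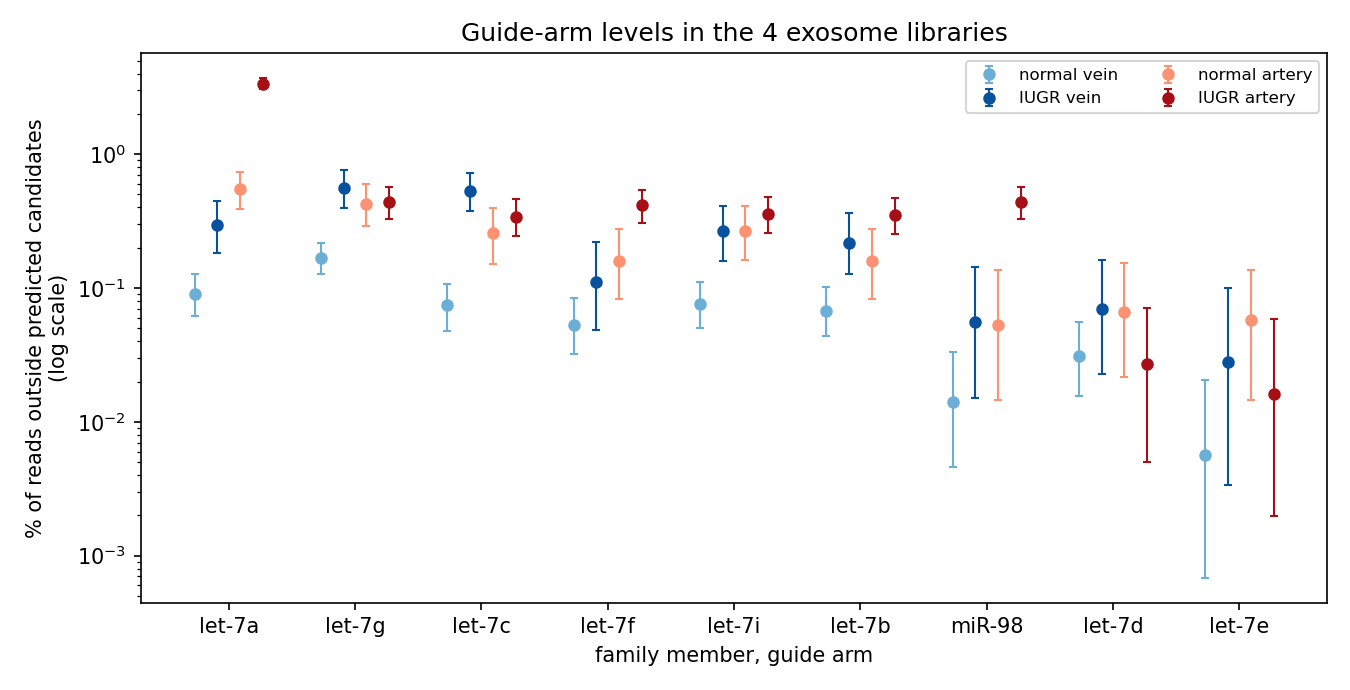
Share of reads outside predicted candidates (percent, log axis) for the guide arm of each of the 9 members in the 4 libraries; points are single libraries and bars exact 95% binomial intervals. let-7a in IUGR artery, at 3.37%, stands above all other values, and normal vein is the lowest library for all members except let-7d.

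The order of the members differed between libraries. In normal vein let-7g led, with a counting interval clear of let-7a behind it, and from let-7a downward no neighbours in the order differed beyond counting error. In IUGR vein let-7g and let-7c led, and in normal artery let-7a and let-7g, without a gap between neighbours in either library. In IUGR artery let-7a led and was clear of miR-98, then miR-98, let-7g, let-7f, let-7i, let-7b and let-7c lay within counting error of their neighbours, and let-7d and let-7e followed after a second gap.

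Shares within the family do not depend on how libraries are scaled. let-7a made up 12.9% of family reads in normal vein (9.07 to 17.9%) and 13.2% in IUGR vein (8.31 to 19.4%), against 26.0% in normal artery (19.3 to 33.5%) and 57.8% in IUGR artery (54.2 to 61.5%). The intervals of the vein libraries overlapped, that of normal artery touched that of IUGR vein, and IUGR artery stood above all others. let-7g, with 24.1, 25.2, 20.2 and 7.49%, held its smallest part in IUGR artery. let-7c took 10.7, 23.9, 12.2 and 5.79%, and miR-98 2.03, 2.49, 2.53 and 7.51%.

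**Figure D2:**
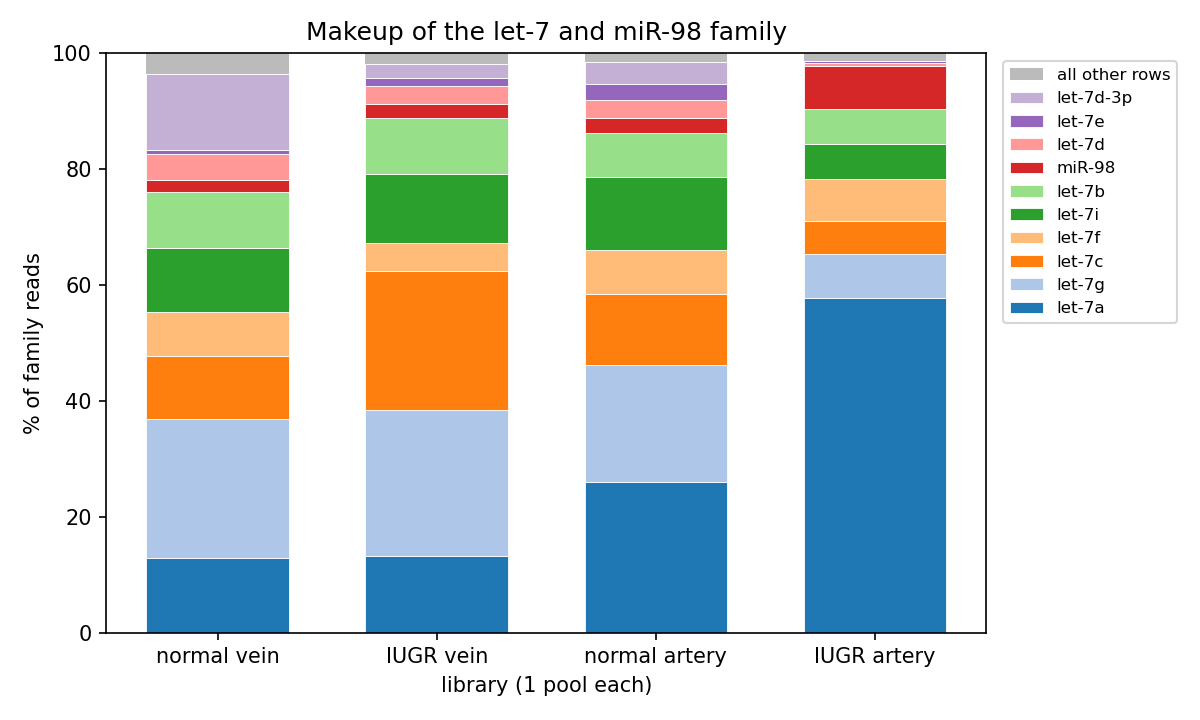
Percent of family reads held by each guide arm, by let-7d-3p and by all other family rows (stacked bars, 1 pool per library). let-7a holds 57.8% in IUGR artery against 26.0% in normal artery, and let-7d-3p is visible mainly in normal vein, at 13.0%.

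The first comparison asked how IUGR and normal piglets differ in the umbilical vein. The family was 3.22-fold higher in IUGR vein, a log2 ratio of 1.69 (1.38 to 1.97). Of 142 mature names with at least 10 reads in the 2 libraries, 46.5% were at least 2-fold apart in either direction, 24.6% higher and 21.8% lower in IUGR. Among the 18 family names 8 had that many reads, and 7, all guide arms, were at least 2-fold higher. Those were let-7a, let-7b, let-7c, let-7d, let-7f, let-7g and let-7i.

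The family names had a median log2 ratio of 1.71, against 0.12 over all 142 names. let-7c had the highest log2 ratio of the 8, 2.83 (2.09 to 3.63), or 7.12-fold, and let-7g stood at 1.76 (1.12 to 2.34). For let-7f and let-7d, at 1.10 (-0.35 to 2.31) and 1.24 (-0.71 to 2.80), the interval held 0. Ratios were taken after adding 0.5 read to each count. Liver markers were at 2.33% in IUGR vein against 0.176% in normal vein, and their part in the family's difference was not tested.

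Scaling decides the size of this difference. With the authors' normalized values the family log2 ratio was 0.69, and 2 family names passed 2-fold, 1 higher (let-7c) and 1 lower (let-7d-3p), while 7.04% of all names were higher and 45.8% lower. The median of all names moved from 0.12 to -0.87 under that scaling. The family lay 1.56 above the median under both, by construction, since 1 factor per library moves every log2 ratio alike.

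The same question was asked of the umbilical artery. There the family was 2.77-fold higher in IUGR than in normal piglets, a log2 ratio of 1.47 (1.22 to 1.73), most of it in let-7a. Without let-7a the rest of the family stood at 2.46% against 1.56%, a log2 ratio of 0.66 (0.35 to 0.99). Of 120 names with at least 10 reads, 78.3% were at least 2-fold apart, 40% higher and 38.3% lower. In the family 7 names had that many reads and 4 were at least 2-fold higher, a share near this background in a pair of libraries that differed widely.

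miR-98 was 7.40-fold higher in IUGR artery, with a log2 ratio of 2.89 (1.60 to 4.97) that rests on 4 reads in normal artery, and it reached 10 reads only through IUGR artery. let-7a was 6.10-fold higher, at 2.61 (2.17 to 3.13). let-7f, at 1.34 (0.45 to 2.42), and let-7b, at 1.09 (0.18 to 2.19), also passed 2-fold. let-7g, let-7c and let-7i stood at 0.03 (-0.61 to 0.72), 0.38 (-0.38 to 1.30) and 0.41 (-0.37 to 1.27), all with intervals that held 0.

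Of the denominator, red cell markers held 40.2% in normal and 9.91% in IUGR artery. Outside those names the family log2 ratio was 0.88, let-7a stood at 2.02, miR-98 at 2.30 and let-7f at 0.75. There 2 family names rather than 4 passed 2-fold, while 35% of all names were higher and 43.3% lower. The median over all names was 0.36 and moved to -0.23 under that scaling, and the family lay 1.11 above it under both, again by construction. Liver markers took 28.6 against 2.32%, and their part in the difference was not tested.

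**Figure D3:**
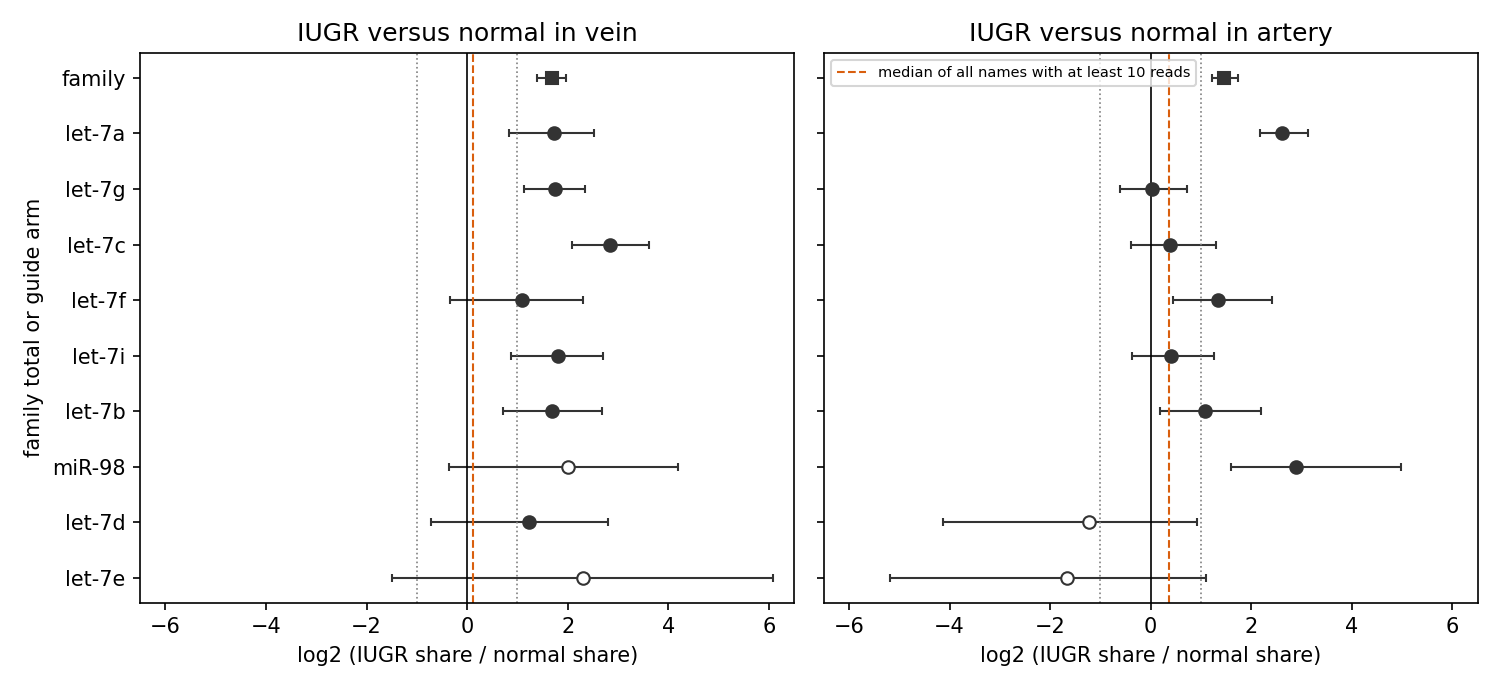
log2 ratio of shares, IUGR over normal, for the family total (square) and each guide arm (circles; open where the 2 libraries hold under 10 reads), with exact conditional 95% intervals; dotted lines mark 2-fold and the dashed line the median of all names. In vein the 7 filled guide arms lie right of the 2-fold line, from 1.10 to 2.83, and in artery they spread from 0.03 to 2.89.

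The vessels were compared within normal and within IUGR piglets, and these comparisons share libraries with those above. Among normal piglets the family was 3.03-fold lower in vein than in artery, a log2 ratio of -1.60 (-1.89 to -1.29). Of 148 names, 43.9% were at least 2-fold apart, 12.2% higher and 31.8% lower in vein. All 7 guide arms with at least 10 reads were at least 2-fold lower in vein, from -1.17 for let-7d (-2.74 to 0.78, which holds 0) to -2.61 for let-7a (-3.30 to -1.89), against a median of -0.33 over all names. let-7d-3p, the eighth family name with enough reads, had a log2 ratio of 0.09 (-1.09 to 1.73). With the authors' normalized values the family stood at -0.999 and 4 guide arms passed, while 27.0% of names were higher and 18.2% lower. The family lay -1.27 from the median of all names under both scalings, again by construction.

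Among IUGR piglets the family was 2.60-fold lower in vein, at -1.38 (-1.64 to -1.14), and without let-7a the log2 ratio was -0.34 (-0.65 to -0.05). Of 116 names, 75.9% were at least 2-fold apart, 36.2% higher and 39.7% lower in vein. In the family 7 names had enough reads and 3 were at least 2-fold lower: let-7a, 11.1-fold, at -3.48 (-4.23 to -2.90), miR-98, at -2.82 (-4.90 to -1.53), and let-7f, at -1.85 (-3.18 to -0.81). Here too miR-98 reached 10 reads only through IUGR artery. let-7c, at 0.66 (-0.04 to 1.30), and let-7g, at 0.37 (-0.28 to 0.96), had intervals that held 0, and let-7g turned to -0.098 as a share of all reads and -0.060 with median ratio scaling. Outside the red cell names the family stood at -0.55, 3 family names were lower and 2 higher (let-7c at 1.49 and let-7g at 1.20), and 45.7% of all names were higher and 35.3% lower. Under that scaling the median of all names moved from -0.39 to 0.44.

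A test with 2 libraries a side was made for vein against artery over both conditions, and none was made for IUGR against normal over both vessels. edgeR's quasi-likelihood test called 0 of 139 names (0%) at a Benjamini-Hochberg adjusted p of 0.05, with 17 names at an unadjusted p under 0.05. Of the 9 family names tested, let-7a was lower in vein, with a log2 fold change of -3.24 and an adjusted p of 0.397, and its share was lower in vein in normal and in IUGR piglets. miR-98 stood at -2.79 with an adjusted p of 0.439 by edgeR. Without IUGR artery these fold changes were -1.22 for let-7a and -0.54 for miR-98. let-7g, at -0.09 with an adjusted p of 0.980 by edgeR, and let-7c, at 0.12, lay near 0, but without IUGR vein let-7c stood at -1.57 and let-7g at -0.92. DESeq2 called 2 names, neither of them in the family, with 21 at an unadjusted p under 0.05. The libraries of a vessel come from different conditions, so the p-values measure the spread between a normal and an IUGR pool.

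One end variant of let-7a moved the seed. The row of let-7a that starts 1 base upstream, and also ends 1 base sooner, is shown with its own bases 2 to 8 in capitals. These differ from the family's seed.
let-7a, upstream start: gTGAGGTAgtaggttgtatagt
It had 1 read in normal vein and 2 in IUGR vein, against 9 in normal artery and 68 in IUGR artery. Of let-7a guide reads that was 3.16% (0.0791 to 16.2%), 9.42% (1.17 to 30.4%), 21.9% (10.6 to 37.6%) and 16.4% (12.9 to 20.3%). Reads of this kind were more frequent in the artery libraries by point estimate, and the intervals of all 4 libraries overlapped.

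Among rows outside PC-, none outside the family carried the shifted stretch. Rows with the family seed held 83.3% of family reads in normal vein and 94.4% in IUGR vein, against 88.3% in normal artery and 89.1% in IUGR artery. Other reads lay in opposite arms and in rows with another start.

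Other end variants held few reads, apart from the row of let-7i. let-7b had a row with 1 more base at the 3′ end, with 0.833, 0.5, 1 and 6 reads, and a row that starts 3 bases downstream, with 1 read in normal artery. A row named let-7c-5p, with 0.333 read in normal vein, holds the whole let-7b sequence and 2 more bases, and the let-7j row, with 1 read in normal vein, the whole let-7i sequence and 2 more bases. These names are thus uncertain. The guide arms of let-7d, let-7e, let-7f, let-7g, let-7i and miR-98 were each listed as 1 row. That of let-7i carries a suffix for 3 more bases at the 3′ end than the form it is named after.

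Among the opposite arms, only let-7d-3p held more than 3 reads in any library. Its sequence is shown with bases 2 to 8 in capitals, which no other row outside PC- shares.
let-7d-3p: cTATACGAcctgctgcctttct
It had 32 reads (0.0906%) in normal vein and 4 (0.0558%) in IUGR vein, against 6 (0.0797%) in normal artery and 0 in IUGR artery, where the floor of 3 reads is 0.0243% and the exact interval reaches 0.0299%. Against that floor IUGR artery was at least 3.28-fold lower than normal artery, a bound that takes the 6 reads as exact. The counting interval of the log2 ratio ended at -0.95, and the 2 libraries held fewer than 10 reads. This is the library in which the family as a whole was highest.

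Relative to its own guide arm let-7d-3p was abundant. It held 74.4% of the reads of both let-7d arms in normal vein (58.8 to 86.5%) and 44.4% in IUGR vein (13.7 to 78.8%), against 54.5% in normal artery (23.4 to 83.3%) and 0% in IUGR artery, where the arms together had 3.33 reads and the interval reached 70.8%. The other opposite arms together held 3.76, 1.92, 1.64 and 1.46% of guide and opposite-arm reads. They were let-7a-3p, let-7a-2-3p, let-7b-3p, let-7c-3p, let-7e-3p, let-7f-2-3p and let-7i-3p, with 0 to 3 reads in each library.

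**Figure D4:**
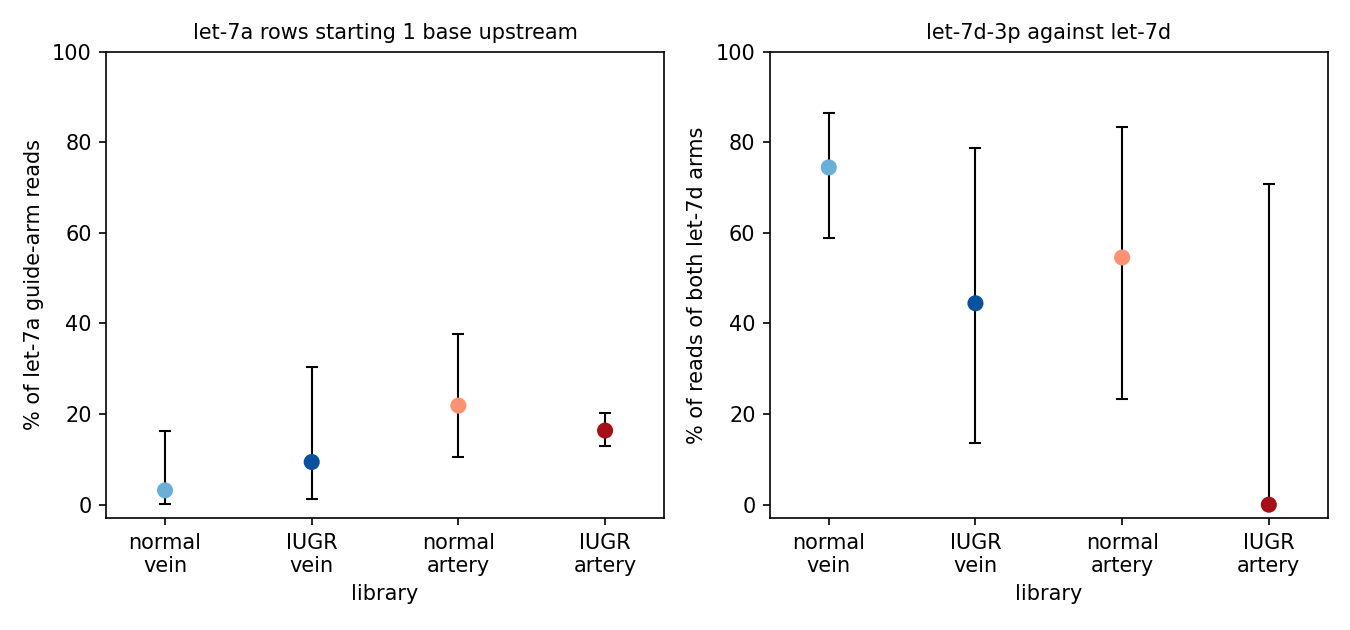
Left, percent of let-7a guide reads in the row that starts 1 base upstream; right, percent of reads of both let-7d arms that lie in let-7d-3p; points are single libraries and bars exact 95% binomial intervals. The let-7a variant ranges from 3.16 to 21.9%, and let-7d-3p from 0% in IUGR artery to 74.4% in normal vein.

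In the RefSeq gene table of the pig assembly Sscrofa11.1, 10 let-7 and miR-98 genes are listed, and 8 have neighbours of the family or of miR-99, miR-100 and miR-125 within 50 kb. MIRLET7A-2, MIRLET7F-2 and MIRLET7D lie together, MIR98 lies beside MIRLET7F-1, and MIRLET7A-1 beside MIR100 and MIR125B-1. MIRLET7C lies beside MIR99A, and MIRLET7E beside MIR99B and MIR125A. By this list let-7a and let-7f can come from 2 genes each, and their mature reads do not show which. The list holds no gene for let-7b, so it may be incomplete for the family.

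The partners of let-7e had their lowest shares in IUGR artery by point estimate, each from 2 reads, below the floor of 3 reads. The IUGR artery interval of miR-99b, 0.00196 to 0.0586%, overlapped those of IUGR vein and normal artery. That of miR-125a, also 0.00196 to 0.0586%, lay below those of the other libraries. let-7e itself had 2 reads in IUGR artery and 2 in normal vein, too few to tell in which library it was lowest. miR-99b had 39, 6, 8 and 2 reads, or 0.110, 0.0836, 0.106 and 0.0162%. miR-125a had 168, 25, 16 and 2 reads, or 0.476, 0.348, 0.213 and 0.0162%. In artery, IUGR over normal, their log2 ratios were -2.48 (-5.98 to -0.39) and -3.43 (-6.88 to -1.62), while that of let-7e, from 2 against 4.33 reads, was -1.66 (-5.18 to 1.09).

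Beside let-7c, miR-99a took 0.851, 1.04, 1.14 and 0.381%, and its log2 ratio in artery was -1.57 (-2.13 to -1.05), against 0.38 for let-7c. These miR-99a values leave out the row named miR-100, which holds the same bases and was higher in IUGR artery. The row named after miR-100, a partner beside let-7a, took 0.200, 0.425, 0.365 and 2.51%, from 70.5, 30.5, 27.5 and 309 reads. It was 6.75-fold higher in IUGR artery than in normal artery. The suffix of that row marks 1 base, a T in place of an A, as differing from miR-100. With it the row holds the whole sequence of the miR-99a row and 2 more bases, in capitals. By sequence it is thus a longer form of the miR-99a row, and its level does not measure miR-100 itself.
miR-99a: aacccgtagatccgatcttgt
miR-100: aacccgtagatccgatcttgtGT
miR-125b took 0.470, 0.878, 1.63 and 1.16%. The 5 partner names count the miR-99a and miR-100 rows apart. Of them, 1 was at least 2-fold higher and 0 lower in IUGR vein than in normal vein. In IUGR artery 1 was higher and 3, miR-99a among them, lower than in normal artery. With the miR-100 row taken as miR-99a by sequence, miR-99a would not count as lower. The higher name was the miR-100 row in both vessels, and both counts stand against the background shares given above. edgeR called 0 of the 5 between vein and artery.

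**Figure D5:**
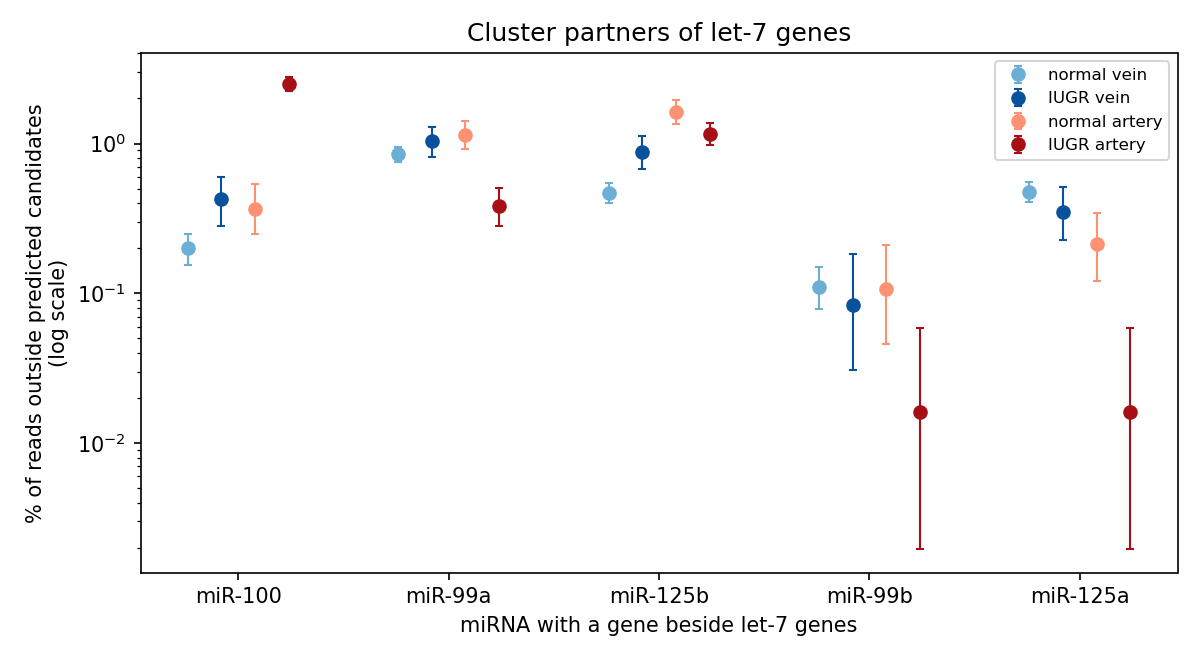
Share of reads outside predicted candidates (percent, log axis) of 5 miRNA names with genes beside let-7 genes. Points are single libraries and bars exact 95% binomial intervals. The row named miR-100, by sequence a longer form of the miR-99a row, reaches 2.51% in IUGR artery. There miR-99b and miR-125a are at 0.0162%, from 2 reads each.

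Outside the family, the names whose shares ran most like the family total over the 4 libraries were miR-126-3p, miR-107, miR-199a-3p, miR-29a and miR-181a. Likeness was the distance between log2 profiles, each centred on its own mean, over 90 names with at least 1 read in every library and 40 in all, and those distances ran from 0.62 to 0.82. miR-126-3p, an endothelial miRNA, took 0.258% in normal vein and 0.711% in IUGR vein, against 0.438% in normal artery and 1.90% in IUGR artery. Each of the 5 was lowest in normal vein and highest in IUGR artery. The family total has the same order, so choosing names by likeness to it favoured this result. Among the family names that met these read minimums, let-7f, at 0.52, and let-7b, at 0.58, lay nearest to the total and let-7a, at 1.77, farthest. let-7d, let-7e and let-7d-3p did not meet them and were not ranked.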

How the data were processed

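Small RNA of 4 pooled exosome libraries was read from one end for 36 bases, per the labels' protocols. The submitters' processing notes name the genome build Sscrofa10.2, with aligner and counter not given in the sources used here. Raw columns are estimated counts with fractions of reads, per the file headers. Normalized columns are a signal, the deposited raw reads times 1 factor per library, set by the authors in a way that no header or label describes. The deposited p-values were not used, and 4 normalized columns that repeat a library were left out. Depth was 7175 to 35317 reads per library outside PC- rows, so a library's floor of 3 reads lay between 0.00849 and 0.0418%.

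Rows with the same name and sequence were matched across the 4 tables, an absent row counting as 0. Rows were summed per mature name, and an arm name was merged with the name without an arm where leading rows shared 15 bases. Ratio intervals are exact conditional binomial intervals. A name was counted at 10 reads in 2 libraries, a fold called at 2, and a floor set at 3 reads. Vein and artery were tested with edgeR 4.0.16 (limma 3.58.1, R 4.3.3) on rounded counts with TMM, for names with at least 20 reads. DESeq2 1.42.0 was used as well. The edgeR procedure was tested on simulated data without a difference between conditions, so that trial does not show its power here. The condition letter of the columns was added as a block in an alternative. Other alternatives changed the scaling, the read minimum, the reads added, the rows per name and the libraries. Named were all members, the cluster partners and the 5 names most like the family total. Members and lists were chosen with earlier results of these data known.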

Additional observations from a re-analysis of the deposited data

Results flagged for a closer look

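let-7c and let-7g had opposite directions between the vessels in normal and in IUGR piglets, over names with at least 10 reads in both comparisons. The log2 ratio of vein over artery for let-7c was -1.79 in normal and 0.66 in IUGR piglets. For let-7g it was -1.35 in normal and 0.37 in IUGR piglets. The difference between the conditions was not tested, since each comparison has 1 library a side, and the counting intervals of both IUGR ratios held 0. The opposite direction of let-7g was lost as a share of all reads, with -0.098 in IUGR piglets, and with median ratio scaling, with -0.060.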

How the results depend on the processing

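All statements on single conditions rest on 1 library each, and depth limits members with few reads. Ratios kept their sign for the family total under every scaling tried. For IUGR against normal in vein, the family log2 ratio was 0.69 with the authors' normalized values. It was 0.71 as a share of all reads and 1.06 with median ratio scaling. Past 2-fold, 1 family name was higher and 1 lower in each of the first 2 settings. With median ratio scaling 5 were higher and 1 lower, and with no read minimum 12 were higher and 0 lower. Of all names, 52.8, 52.1, 47.2 and 43.4% passed in these settings. In artery, the ratio was 0.88 outside the red cell names, with 2 names, and 1.95 with median ratio scaling, and 9 names passed with no read minimum. Between the vessels of normal piglets the ratio was -0.999 with the authors' values, -0.93 as a share of all reads and -0.92 with median ratio scaling. In these settings 4, 3 and 3 family names were lower in vein, and 11 with no read minimum, with 0 higher in each. Of all names, 45.3% passed under each of these scalings and 46.9% with no minimum. Between those of IUGR piglets it was -1.85 as a share of all reads, -1.81 with median ratio scaling and -0.55 outside the red cell names, with 5 names in the last, and 7 with no read minimum. The shifts of the family ratio follow from the denominators, and the counts with no minimum from more names entering. Over single guide arms, 181 of 196 values stayed within their counting interval and 15 moved, none with a called sign reversed. edgeR called 0 names between vein and artery with the condition letter as replicate block, and 0 with each library left out in turn, with 14 and between 0 and 57 at an unadjusted p under 0.05, while DESeq2 called 2. A fit without a library takes its spread from the other vessel alone, so its 0 calls say little about stability. The smallest adjusted p of a family name in edgeR ranged from 0.115 without normal artery to 0.996 without normal vein. The block used N and I, since columns carry none of the labels' numbers, and the labels do not say whether vein and artery libraries share piglets. Over 139 names, deviations from the vessel means correlated at 0.57 between same-lettered libraries.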
